A study of Homo sapiens with 15 samples.

Results

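The transcriptome of IGROV-CP20 cells exposed to cisplatin alone was set against that of untreated cells of the same line. IGROV-CP20 is a human ovarian cancer cell line made resistant to cisplatin. The members were taken by their sample labels: 3 untreated libraries and 3 libraries treated with cisplatin, 6 of the 15 libraries of the study. Cisplatin was given at 50 µM for 24 h, and the untreated cells received neither cisplatin nor any other drug. The other 9 libraries, 3 per condition, came from cells that first received Tranilast, Telmisartan or Amphotericin B (10 µM, 24 h) and then the same cisplatin treatment, and no library held a drug without cisplatin. The replicates of each condition are labelled biological, but all come from 1 cell line, the parental sensitive line was not analysed here, and only 1 dose and 1 time were sampled. RNA was counted by QuantSeq, which primes on the poly(A) tail and gives about 1 read per transcript from its 3' end, so that a count does not grow with the length of the transcript.

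Cisplatin is a platinum compound that binds purine bases and links them within and between DNA strands. Such lesions block DNA and RNA polymerases. Cells answer genotoxic and proteotoxic stress with several known programmes. Immediate early genes encode unstable transcription factors and are induced within minutes of a stimulus without new protein synthesis. The p53 pathway arrests the cell cycle or starts apoptosis. The unfolded protein response raises the chaperones of the endoplasmic reticulum (ER), the ATF4 arm of the integrated stress response raises amino acid transporters and synthetases, and the heat shock response raises cytosolic chaperones. Resistant ovarian cells are also known for handling platinum through copper transporters and copper chaperones.

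The 6 libraries held between 2171154 and 3392054 counts, with 2691832 to 3392054 in the untreated and 2171154 to 2488037 in the cisplatin group. A count of 0 allowed up to 3 counts, or 0.884 to 1.11 CPM (counts scaled to a common library total) in untreated and 1.21 to 1.38 CPM in cisplatin libraries before TMM scaling, for counting error only. The TMM factors, which set the levels below, were 1.17 in every untreated library and 0.721, 0.944 and 1.08 in cisplatin replicates 1, 2 and 3. Untreated libraries differed little from each other, with chi-square per degree of freedom between 2.36 and 3.59 across genes, whereas the cisplatin libraries differed by 30.6 (replicates 1 and 2), 49.5 (1 and 3) and 9.02 (2 and 3). Cisplatin replicate 1 therefore stood apart, and many results that change without it are given both ways. Counts of list members that are given 1 way only may still change without it. Of 12 ovarian and epithelial markers in the tables, EPCAM, KRT8, KRT18 and KRT19 reached tested levels, while PAX8, KRT7, MUC16, FOLR1 and CLDN3 were at 0 in all 6 libraries. Their summed level was 146 to 152 CPM in untreated and 164 to 198 CPM in cisplatin libraries. Of 17 markers of other cell types, 6 were at 0 throughout, among them CD3E of T cells and CDH5 and VWF of endothelium, and the list summed to 67.0 to 81.7 CPM in untreated and 6.35 to 28.0 CPM in cisplatin libraries. In untreated libraries nearly all of that was PTPRC, a tyrosine phosphatase of leukocytes, at 70.1, 64.5 and 75.4 CPM in untreated and 15.1, 2.45 and 3.57 CPM in cisplatin libraries. PTPRC fell by 3.38 on the log2 scale (edgeR adjusted p = 3.44e-05), with a log2 fold change of -4.51 once cisplatin replicate 1 was left out. Without PTPRC the list summed to 2.59 to 6.36 CPM in untreated and 2.78 to 12.9 CPM in cisplatin libraries. Counts are relative to the whole library, so fewer cells in a state and less RNA per cell cannot be told apart.

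Cisplatin changed a large part of the measured transcriptome. Of 11113 genes tested, 2345 were higher (21.1%) and 2622 lower (23.6%) at an adjusted p under 0.05 in edgeR's quasi-likelihood test, 44.7% in either direction. These shares are the background for every count of genes from this fit below, and a list whose share is near them does not stand out. Counts of list members under another setting have the calls of that setting as their background. Changes of more than 2-fold made up 1327 of the increases and 1823 of the decreases. The libraries of the groups did not overlap for 2669 genes higher (24.0%) and 3274 lower (29.5%) with cisplatin. The balance of higher and lower calls depended on scaling. Main values were scaled by TMM, which sets the middle of the genes near 0 (median log2 fold change -0.01) and gave 47.2% of calls as higher. Scaling by library size alone moved the median of all genes to -0.36 and gave 1019 higher and 3351 lower, 23.3% of calls higher. With the size factors of relative log expression 2541 were higher and 2481 lower. All changes below are relative to the middle of the genes.

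The change in a gene's level followed its genomic span, the distance from its start to its end in GENCODE 29 (GRCh38). The 2477 nuclear genes under 10 kb had a median log2 fold change of 0.65, with 1056 higher (42.6%) and 162 lower (6.54%). Genes of 10 to 30 kb (3038) had a median of 0.30, and those of 30 to 100 kb (3581) a median of -0.26. The 1552 genes of 100 to 300 kb had a median of -1.17, with 33 higher and 1021 lower (65.8%). The 290 genes of 300 kb and over had a median of -1.90, with 3 higher and 225 lower (77.6%). Genes are not independent replicates, so these medians describe the libraries and carry no test. Spearman's rho of span and log2 fold change across the 10938 nuclear genes with a span was -0.60, with depth and library common to all points. Each cisplatin library showed the order of the 5 bins. For genes under 10 kb the median differences from the untreated mean were 0.60, 0.60 and 0.43 in replicates 1, 2 and 3, and for genes of 300 kb and over they were -1.01, -2.26 and -2.47. Replicate 1 thus showed the smallest fall of the longest genes, and without it their median was -2.70. The fitted medians of protein-coding genes kept the order of the bins when split at 4 kb of transcript length or at the median level over the 15 libraries. Among genes of 300 kb and over, the median was -1.67 for transcripts under 4 kb and -2.0 for those of 4 kb and over. In cisplatin replicate 1 alone the order did not hold among transcripts under 4 kb, where the median difference was -0.71 at 100 to 300 kb and -0.64 at 300 kb and over.

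**Figure D1:**
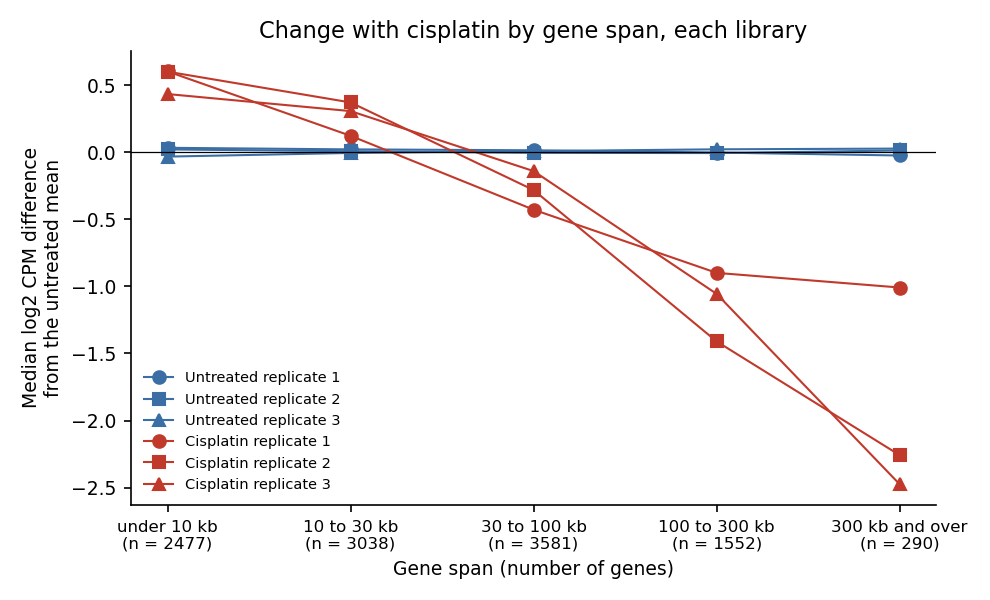
Median log2 CPM difference of all nuclear genes (vertical axis) by bin of gene span in kb (horizontal axis), with 1 line per library. Cisplatin libraries are set against the untreated mean, and each untreated library against the mean of the other two. The cisplatin lines run from 0.43 to 0.60 under 10 kb down to between -1.01 and -2.47 at 300 kb and over, and the untreated lines stay near 0.

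The share of all counts on genes of 100 kb and over was 11.5% ± 0.0691 (SD, n = 3) in untreated and 4.37% ± 0.646 (SD, n = 3) in cisplatin libraries. The groups did not overlap, and the exact two-sided permutation test gave p = 0.1, the smallest value that 3 against 3 libraries allow. Exceptions ran in both directions. In all, 36 genes of 100 kb and over were higher, among them CCND3, a D-type cyclin (log2 fold change 1.39), HMGB1, a chromatin protein (0.90), and CLTA, a clathrin light chain (0.65). The call of CLTA was lost with scaling by library size alone (log2 fold change 0.29, edgeR adjusted p = 0.163). Genes under 10 kb that were lower included HSPA5, the chemokine CXCL1 (-2.91), the metalloproteinase MMP3 (-2.28) and the signaling inhibitors DUSP6 (-2.42), SPRY1 (-2.22) and SPRY2 (-2.23). Without cisplatin replicate 1 the values were -3.75 for CXCL1, -2.88 for MMP3 and -3.02 for DUSP6. Since gene lists differ in span, the lists below are given with their median log2 fold change and, where it can be formed, with the median after subtracting the median of each gene's span bin (the span-adjusted median). The lists and the named members were chosen with earlier results of these data known, so the counts describe them and test nothing about the lists.

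The 4 genes that mark this comparison were NR4A2 and UNG, which rose, and HSPA5 and ACSL3, which fell. NR4A2 (chr2:156324432-156342348), an orphan nuclear receptor of the immediate early class, was at 2.55, 4.32 and 3.56 CPM in the untreated and 53.2, 118 and 103 CPM in the cisplatin libraries. All cisplatin libraries lay above all untreated ones, and the increase was 25.9-fold (log2 fold change 4.70, SE 0.37, edgeR adjusted p = 9.47e-07), the largest among genes with a mean of at least 4 on the log2 CPM scale. UNG (chr12:109097574-109110992), the uracil-DNA glycosylase that starts base excision repair of uracil, was at 43.4, 46.9 and 49.9 CPM and rose to 178, 311 and 270.5 CPM. That was 5.42-fold higher with no overlap (log2 fold change 2.44, SE 0.21, edgeR adjusted p = 1.23e-06). HSPA5 (chr9:125234853-125241330) encodes BiP, the main HSP70 chaperone of the ER. It fell from 4524, 4139.7 and 4369.7 CPM to 818, 427 and 443 CPM, 7.73-fold lower (log2 fold change -2.95, SE 0.27, edgeR adjusted p = 2.25e-06). ACSL3 (chr2:222860934-222944639), a long-chain acyl-CoA synthetase that activates fatty acids, fell from 346, 319 and 316 CPM to 68.3, 45.1 and 43.7 CPM, 6.26-fold lower (log2 fold change -2.65, SE 0.21, edgeR adjusted p = 9.47e-07). For all 4 genes the 3 cisplatin libraries lay on 1 side of the untreated range, and cisplatin replicate 1 was the one nearest to it. No call among the 4 was lost in any of the 18 other settings. Spans are 17.9 kb for NR4A2, 13.4 kb for UNG, 6.48 kb for HSPA5 and 83.7 kb for ACSL3. HSPA5 fell although its bin of span rose in the median.

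**Figure D2:**
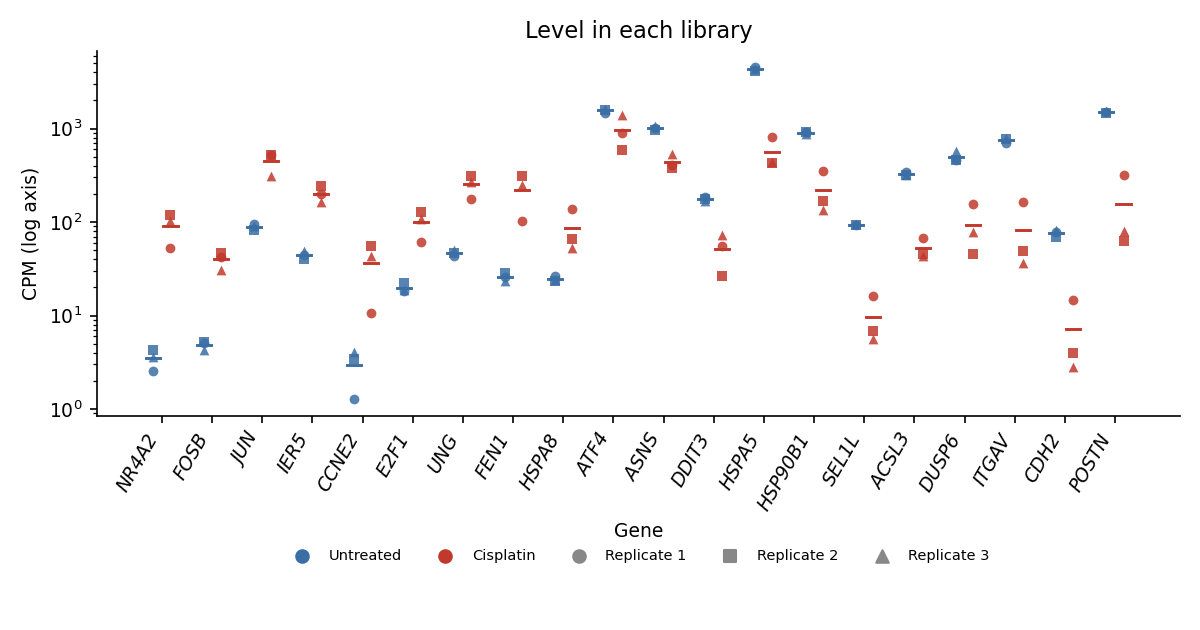
CPM on a log axis (vertical) of 20 named genes in each of the 3 untreated and 3 cisplatin libraries (points). Points of the groups are apart in every gene shown. NR4A2 goes from 2.55 to 4.32 CPM up to 53.2 to 118 CPM, and HSPA5 from 4140 to 4524 CPM down to 427 to 818 CPM.

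Most immediate early genes were higher with cisplatin. Of 26 tested, 15 were higher and 0 lower, against 21.1% and 23.6% of all genes. Their median log2 fold change was 0.94, but 0.30 after subtracting the span bin, since most of these genes are short. JUN, a subunit of AP-1, went from 94.7, 81.7 and 91.6 CPM to 523, 523 and 307 CPM, 5.05-fold higher (log2 fold change 2.33, SE 0.30, edgeR adjusted p = 1.81e-05). FOSB, its partner in AP-1, went from 5.10, 5.18 and 4.33 CPM to 42.6, 46.6 and 31.0 CPM (log2 fold change 3.03, SE 0.34, edgeR adjusted p = 8.02e-06). The groups did not overlap for either gene, although FOSB overlaps ERCC1 on the other strand and reads of the pair may not be told apart. IER5, an immediate early regulator of heat shock factor, rose from 44.3, 40.3 and 48.6 CPM to 198, 240.4 and 162 CPM (log2 fold change 2.17, SE 0.18, edgeR adjusted p = 1.23e-06). FOS was higher by 2.07 on the log2 scale (edgeR adjusted p = 0.0235), but this call was lost without cisplatin replicate 1 (adjusted p = 0.0889) and without 3 other single libraries, with adjusted p from 0.062 to 0.0861. The relatives of NR4A2 were near the limit of counting. NR4A3 had 0, 3 and 1 counts in untreated and 4, 38 and 57 counts in cisplatin libraries. NR4A1 had 6, 0 and 2 counts in untreated and 14, 20 and 26 counts in cisplatin libraries. Both were called higher, but their untreated counts were all under the filter's minimum count of 10. They entered the test through treated libraries, so a call of lower was hardly open to them and these 2 calls add no support. SRF, the serum response factor that drives many immediate early promoters, rose from 94.0, 82.3 and 113 CPM to 137, 293 and 247 CPM (log2 fold change 1.23). EGR1, a zinc finger factor of the same class, did not follow. It was at 86.1, 83.2 and 91.6 CPM in untreated and 80.1, 26 and 20.7 CPM in cisplatin libraries (log2 fold change -1.07, edgeR adjusted p = 0.0659). Without cisplatin replicate 1 it was called lower (log2 fold change -1.92, edgeR adjusted p = 0.00123), and the list then had 13 higher and 1 lower. EGR1 was also called lower by limma-voom (adjusted p = 0.0232). The same held in edgeR with scaling by library size alone, no filter beyond 1 count, or a replicate block over the 6 libraries (adjusted p = 0.00566, 8.73e-05 and 0.0215). With scaling by library size alone the list had 12 higher and 2 lower.

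The inhibitors of the MAP kinase pathway, many of which are induced by the pathway they inhibit, split. Of 12 tested, 4 were higher and 4 lower (median -0.28, span-adjusted -0.02). DUSP1, a nuclear MAP kinase phosphatase, rose from 1.28, 2.01 and 1.27 CPM to 5.04, 9.81 and 6.75 CPM (log2 fold change 2.22, SE 0.43, edgeR adjusted p = 0.00059). DUSP1 was near the limit of counting, with 4, 7 and 5 counts in untreated and 9, 20 and 17 counts in cisplatin libraries. DUSP8, a phosphatase for JNK and p38, was also higher (log2 fold change 1.53). DUSP6, the cytoplasmic phosphatase for ERK, fell from 461, 464 and 569 CPM to 157, 45.1 and 78.2 CPM (log2 fold change -2.42, SE 0.31, edgeR adjusted p = 1.91e-05). The receptor signaling inhibitors SPRY1 and SPRY2 fell by 2.22 and 2.23 on the log2 scale.

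Genes of the G1/S transition and DNA replication were higher with cisplatin in most cases. Of 45 tested, 37 were higher and 0 lower, with a median of 1.22 and of 1.14 after subtracting the span bin. CCNE2 and CCNE1, the E-type cyclins that drive entry into S phase, went from 1.28, 3.45 and 4.07 to 10.6, 55.9 and 42.9 CPM and from 18.8, 17.3 and 16.8 to 50.4, 115 and 77.4 CPM (log2 fold changes 3.6 and 2.20). CCNE2 overlaps INTS8 and NDUFAF6, so its count is less certain. E2F1, the activating transcription factor of this programme, went from 18.5, 22.4 and 18.6 CPM to 61.6, 129 and 109 CPM (log2 fold change 2.33, SE 0.27, edgeR adjusted p = 8.02e-06). E2F2, of the same family, was higher by 2.32 on the log2 scale. PCNA, the sliding clamp of DNA polymerases, went from 29.3, 24.5 and 22.9 CPM to 51.5, 110.4 and 123 CPM (log2 fold change 1.90, SE 0.33, edgeR adjusted p = 0.000238). The licensing factor CDT1 and the helicase subunit MCM2 were higher by 2.03 and 1.76. For CCNE1, E2F1 and PCNA all cisplatin libraries lay above all untreated ones, with replicate 1 the lowest of the 3. Without that replicate 33 of the list were higher, and with scaling by library size alone 22 were, with 0 lower in both.

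The promoters of these genes can be read beside the counts. The 250 bases before the start of E2F1 (chr20:33686386-33686635, minus strand) and PCNA (chr20:5126623-5126872, minus strand), from RefSeq (GRCh38.p14), are shown because both genes rose and hold an E2F site, marked in capitals.
E2F1: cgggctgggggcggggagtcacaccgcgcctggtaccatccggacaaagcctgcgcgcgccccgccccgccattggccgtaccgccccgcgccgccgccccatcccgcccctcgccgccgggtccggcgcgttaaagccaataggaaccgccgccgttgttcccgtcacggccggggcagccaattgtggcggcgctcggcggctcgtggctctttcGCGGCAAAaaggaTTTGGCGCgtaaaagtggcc
PCNA: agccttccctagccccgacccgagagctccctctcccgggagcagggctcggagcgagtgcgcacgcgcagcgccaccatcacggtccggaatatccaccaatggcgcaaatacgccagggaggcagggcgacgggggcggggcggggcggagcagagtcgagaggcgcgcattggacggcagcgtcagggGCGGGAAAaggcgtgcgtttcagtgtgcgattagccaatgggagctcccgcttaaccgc
The letters searched on both strands were TTTCCCGC, TTTCGCGC, TTTGCCGC and TTTGGCGC. Of the 45 tested genes of the list, 37 had a promoter entry and 15 of these held a match (40.5%), against 4.71% of 8620 tested genes with an entry and 2.79% of all 27305 promoters. The median log2 fold change was 0.67 for genes with a match and 1.23 for those without, so that a match did not go with the larger increase. E2F1 holds 2 matches, with 25 and 12 bases between the match and the start, and 51 bases lie between the match and the start in PCNA.

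Genes of mitosis and replication-dependent histones did not rise with the replication genes. Of 34 genes of G2/M and mitosis, 6 were higher and 12 lower (median -0.16, span-adjusted -0.44). TOP2A, the topoisomerase of dividing cells, was at 2275, 2093 and 2364 CPM and then 898, 1537 and 1309 CPM (log2 fold change -0.85, SE 0.22, edgeR adjusted p = 0.00551), and the groups did not overlap. PLK1, a mitotic kinase, and CENPE, a kinetochore motor, fell by 0.85 and 1.47, while the kinase CDK1 and the checkpoint protein MAD2L1 rose by 0.74 and 0.99. With scaling by library size alone none of the 6 remained higher. Of 16 replication-dependent histones (median -0.36, span-adjusted -0.95), 6 were lower, among them HIST1H4C (-0.79), HIST1H1C (-1.20) and HIST1H1E (-2.26). HIST2H2BE, a histone gene known for also making polyadenylated transcripts, was the 1 that rose, from 1.91, 4.03 and 4.33 CPM to 43.1, 32.4 and 23.8 CPM (log2 fold change 3.22). Poly(A) priming counts the other histones poorly, since their main transcripts carry no tail.

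**Figure D3:**
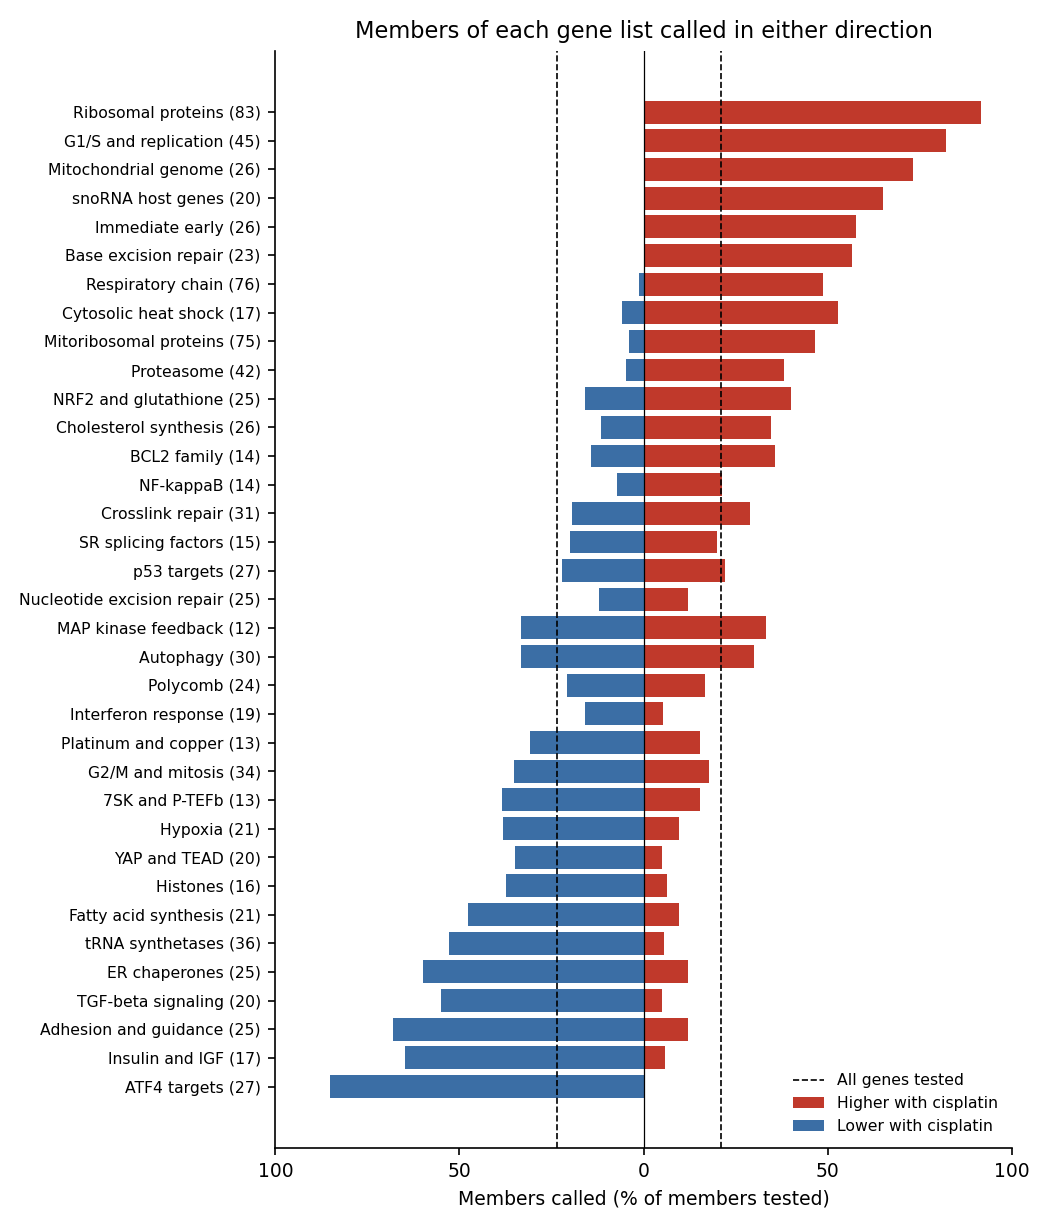
Percent of tested members called higher and lower with cisplatin (horizontal axis) in each gene list (vertical axis), with dashed lines at 21.1% and 23.6%, the shares of all genes tested. Ribosomal proteins (76 of 83) and G1/S genes (37 of 45) reach far to the higher side, and ATF4 targets (23 of 27) to the lower side.

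DNA repair did not move as a whole. Base excision repair, which removes single damaged bases, had 13 of 23 genes higher and 0 lower (median 0.59, span-adjusted 0.43). Beside UNG these included FEN1, the flap endonuclease shared with replication, which went from 26.1, 28.5 and 23.4 CPM to 103, 310.0 and 250.2 CPM (log2 fold change 3.09, SE 0.30, edgeR adjusted p = 4.06e-06). FEN1 overlaps FADS2 on the same strand and TMEM258 on the other, so its reads are uncertain. APEX2, an AP endonuclease, rose from 17.9, 16.1 and 14 CPM to 34.7, 99.1 and 70.3 CPM (log2 fold change 2.09). PCNA stands in this list too. With scaling by library size alone 6 of the 23 were higher and 2 lower, where 1019 of 11113 genes were higher and 3351 lower. Without either untreated replicate 3 or cisplatin replicate 2, 8 of the list were higher. Nucleotide excision repair, the main route for cisplatin links within a strand, had 3 higher and 3 lower of 25 (median -0.10, span-adjusted 0.03). These counts were 5 and 3 without cisplatin replicate 3. With scaling by library size alone they were 0 and 8, against the same 1019 and 3351 of all genes. The helicase ERCC3 and the single-strand binding protein RPA2 rose by 0.84 and 1.0. The damage sensor RAD23B and the TFIIH subunits GTF2H3 and MNAT1 fell by 0.72, 0.75 and 1.58, with a log2 fold change of -2.69 for MNAT1 without cisplatin replicate 1. Interstrand crosslink repair with homologous recombination and translesion synthesis had 9 higher and 6 lower of 31 (median 0.16, span-adjusted 0.50). XRCC3, a protein of homologous recombination, went from 6.06, 5.75 and 3.82 CPM to 10.6, 38.3 and 25 CPM (log2 fold change 2.25, SE 0.43, edgeR adjusted p = 0.000555), and UBE2T, the E2 enzyme of the Fanconi pathway, rose by 1.30. The nuclease subunit MUS81 and the translesion polymerase POLK fell by 1.29 and 1.34, and XRCC3, MUS81, POLK and GTF2H3 each overlap a gene on the other strand, among them KLC1 for XRCC3 and EIF2B1 for GTF2H3. FANCD2, the centre of the Fanconi pathway, was at 42.7, 38.8 and 41.0 CPM and 24.6, 35.8 and 31.4 CPM (edgeR adjusted p = 0.116). In mismatch repair the exonuclease EXO1 rose by 1.73, the 1 increase among 7 genes (median -0.48, span-adjusted 0.19).

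The p53 targets were divided, with 6 higher and 6 lower of 27 (median 0.12, span-adjusted 0.10), shares close to those of all genes. CDKN1A, the cell cycle inhibitor p21 and the best known target, was at 3.83, 3.74 and 6.11 CPM in untreated and 6.16, 7.85 and 9.93 CPM in cisplatin libraries (log2 fold change 0.81, edgeR adjusted p = 0.103). These groups did not overlap, but the lowest cisplatin and highest untreated values were 6.16 and 6.11 CPM. MDM2, the ligase that degrades p53, was at 86.1, 83.2 and 90.6 CPM and 28.6, 46.1 and 96.5 CPM (edgeR adjusted p = 0.207). Its cisplatin replicate 3 lay above the untreated range and the others below it, and without that library it was called lower (log2 fold change -1.21, edgeR adjusted p = 0.0123). Higher targets included TRIAP1, a mitochondrial survival factor, at 184, 149.6 and 169 CPM and then 458, 602 and 429 CPM (log2 fold change 1.57, SE 0.18, edgeR adjusted p = 9.69e-06), PMAIP1, the BH3 protein NOXA (1.27), and BAX, an effector of apoptosis (1.08). Lower targets included the stress cytokine GDF15, from 129, 114 and 129 CPM to 23.5, 5.89 and 41.7 CPM (log2 fold change -2.36, SE 0.50, edgeR adjusted p = 0.00117), and SESN2, an inhibitor of mTORC1 that ATF4 also controls (-1.65). Without cisplatin replicate 3, the highest of its group in both, the values were -3.10 for GDF15 and -2.25 for SESN2. In the BCL2 family 5 of 14 were higher and 2 lower (median 0.26, span-adjusted 0.21), and 1 to 3 were lower with single libraries left out. BCL2L11, the BH3 protein BIM, went from 1.28, 2.3 and 2.04 CPM to 5.60, 11.8 and 7.15 CPM (log2 fold change 2.09), and HRK, another BH3 protein, fell by 1.55.

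Chaperones of the ER fell while part of the cytosolic chaperones rose. Of 25 genes of ER folding and quality control, 15 were lower and 3 higher (median -0.93, and -1.23 after subtracting the span bin). Beside HSPA5, HSP90B1, the HSP90 of the ER, fell from 930.0, 917 and 866 CPM to 354, 168 and 135 CPM (log2 fold change -2.05, SE 0.31, edgeR adjusted p = 6.31e-05). SEL1L, the adaptor of ER-associated degradation, fell from 92.1, 92.1 and 96.0 CPM to 16.2, 6.87 and 5.56 CPM (log2 fold change -3.33, SE 0.38, edgeR adjusted p = 8.02e-06). No cisplatin library overlapped the untreated range in these 2 genes. The sensor ATF6 fell by 2.85 on the log2 scale, the chaperone HYOU1 by 2.24 and the transcription factor XBP1 by 2.02. The log2 fold changes without cisplatin replicate 1 were -3.93 for SEL1L, -3.57 for ATF6 and -2.98 for HYOU1. SDF2L1 and MANF, small ER proteins also induced by ER stress, were higher, by 1.08 and 0.84. SDF2L1 went from 143, 132 and 138 CPM to 259, 332 and 283 CPM. The ER stress element, CCAAT and CCACG with 9 bases between them, binds NF-Y and ATF6, and it was searched on both strands. The promoters of HSPA5 (chr9:125241344-125241593, minus strand) and HSP90B1 (chr12:103930160-103930409, plus strand), from the same table, are shown because these abundant chaperones fell and both hold the element, in capitals.
HSPA5: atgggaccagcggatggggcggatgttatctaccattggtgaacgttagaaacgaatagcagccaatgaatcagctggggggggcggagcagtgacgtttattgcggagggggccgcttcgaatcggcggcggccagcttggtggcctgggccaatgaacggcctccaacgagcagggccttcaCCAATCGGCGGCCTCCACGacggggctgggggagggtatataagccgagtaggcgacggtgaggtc
HSP90B1: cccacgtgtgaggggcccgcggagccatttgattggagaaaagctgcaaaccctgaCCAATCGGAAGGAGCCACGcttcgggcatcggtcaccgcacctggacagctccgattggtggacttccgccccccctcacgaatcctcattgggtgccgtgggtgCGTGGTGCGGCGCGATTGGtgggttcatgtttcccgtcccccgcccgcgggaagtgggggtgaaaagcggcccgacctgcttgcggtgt
It was found in 6 of 22 ER promoters with an entry, those of CALR, CANX, CRELD2, HSP90B1, HSPA5 and XBP1, against 0.151% of tested genes and 0.0806% of all promoters. Of these 6 genes 5 were lower, and their median was -1.73, against -0.90 for the ER genes without it.

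Of 17 cytosolic heat shock chaperones and co-chaperones, 9 were higher and 1 lower (median 0.56, span-adjusted 0.63). HSPA8, the constitutive HSP70, went from 26.8, 23.3 and 24.2 CPM to 139, 65.2 and 53.2 CPM (log2 fold change 1.79, SE 0.41, edgeR adjusted p = 0.00212). AHSA1, the activator of HSP90, went from 247, 238 and 253 CPM to 598, 668 and 565 CPM (log2 fold change 1.31, SE 0.19, edgeR adjusted p = 4.09e-05). DNAJA1, a co-chaperone of HSP70, rose by 1.09. DNAJB1, a co-chaperone induced by heat, was at 113, 97.3 and 117 CPM and 102, 439.5 and 327 CPM (log2 fold change 1.41, SE 0.32, edgeR adjusted p = 0.00193), and its cisplatin replicate 1 lay within the untreated range. HSP90AA1, the inducible HSP90, was at 2164, 2283 and 2168 CPM and 3040.2, 3025 and 2491 CPM (edgeR adjusted p = 0.173), and HSPA4, a nucleotide exchange factor, fell by 0.77.

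Most genes of the ATF4 programme fell. Of 27 genes tested, 23 were lower and 0 higher, with a median of -1.47 before and after subtracting the span bin. The median differences in cisplatin replicates 1, 2 and 3 were -1.58, -1.96 and -0.91. ASNS, asparagine synthetase, fell from 1025, 957 and 1066 CPM to 409, 375 and 535 CPM (log2 fold change -1.21, SE 0.24, edgeR adjusted p = 0.000615). DDIT3, the factor CHOP, fell from 185, 179 and 168 CPM to 56.0, 26.5 and 71.9 CPM (log2 fold change -1.78, SE 0.27, edgeR adjusted p = 8.01e-05), although its reads may mix with those of MARS. CHAC1, which degrades glutathione, fell from 137, 137 and 129 CPM to 20.7, 10.8 and 62.0 CPM (log2 fold change -2.08, SE 0.47, edgeR adjusted p = 0.00191). In each of these 3 genes all cisplatin libraries lay below all untreated ones, with replicate 3 the highest of them. ATF4 itself was at 1468, 1592 and 1639.9 CPM and 894, 591 and 1389.7 CPM (log2 fold change -0.71, edgeR adjusted p = 0.0282). That call was lost without any 1 of 4 libraries, with adjusted p from 0.0515 without cisplatin replicate 1 to 0.145 without cisplatin replicate 2. The pseudokinase TRIB3 fell by 1.63, the hepatokine INHBE by 2.55, the glutamine transporter SLC38A2 by 1.82 and the serine synthesis enzyme PSAT1 by 1.47. With cisplatin replicate 3 left out, the log2 fold changes were -3.11 for CHAC1 and -3.82 for INHBE. The aminoacyl-tRNA synthetases, several of them targets of ATF4, had 19 of 36 lower and 2 higher (median -0.60, span-adjusted -0.35), and the 2 were 0 or 1 with any single library left out. AARS fell by 1.87, EPRS by 1.71, LARS by 1.5 and GARS by 1.45.

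The C/EBP-ATF response element was searched as TGATGNAA on both strands of the same promoters. Those of CHAC1 (chr15:40953221-40953470, plus strand) and ASNS (chr7:97872409-97872658, minus strand) are shown as the members of the ATF4 list that hold it, in capitals.
CHAC1: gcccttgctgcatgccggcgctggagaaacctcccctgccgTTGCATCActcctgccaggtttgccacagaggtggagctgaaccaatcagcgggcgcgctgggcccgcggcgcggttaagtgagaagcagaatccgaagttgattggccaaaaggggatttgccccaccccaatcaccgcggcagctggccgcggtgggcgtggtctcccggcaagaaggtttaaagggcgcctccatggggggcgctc
ASNS: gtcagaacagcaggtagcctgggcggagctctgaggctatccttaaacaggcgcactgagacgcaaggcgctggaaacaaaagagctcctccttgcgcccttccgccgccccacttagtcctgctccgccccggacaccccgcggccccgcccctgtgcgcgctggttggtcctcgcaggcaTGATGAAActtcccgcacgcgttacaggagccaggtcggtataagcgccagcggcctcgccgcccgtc
These were 2 of 21 ATF4 promoters with an entry (9.52%), and 3 of 30 synthetase promoters held it (10%), those of AARS, IARS and YARS2, against 1.21% of tested genes and 3.19% of all promoters. Between the match and the start lie 201 bases in CHAC1 and 60 in ASNS. The cyclic AMP response element TGACGTCA, read by CREB and AP-1 family dimers, was in 2 of 20 immediate early promoters, those of JUND and MAFF, against 3.24% of tested genes and 1.76% of all promoters.

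**Figure D4:**
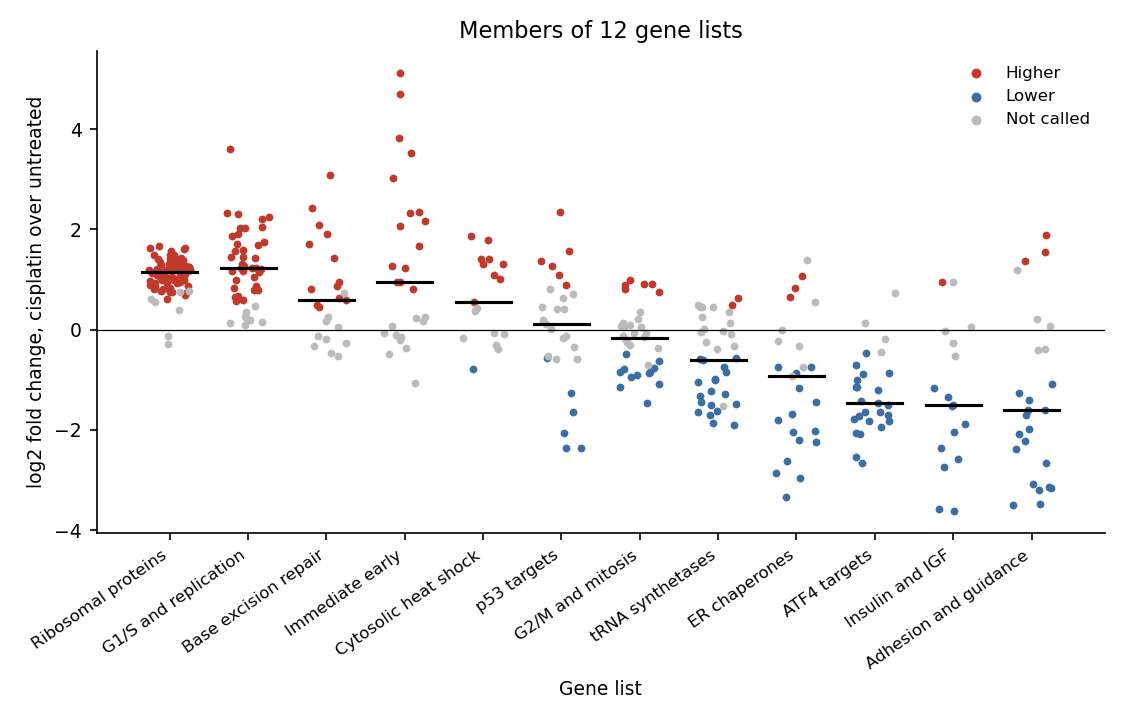
Log2 fold change with cisplatin (vertical axis) of every tested member of 12 gene lists (horizontal axis), 1 point per gene, with the list medians marked. ATF4 genes lie mostly below 0 (median -1.47), ER genes run from -3.33 up to 1.4, and G1/S genes all lie above 0 (median 1.22).

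Lipid genes were divided by pathway. Of 26 genes of cholesterol synthesis and its control, 9 were higher and 3 lower (median 0.27, span-adjusted 0.05). None were lower without cisplatin replicate 2, and 1 was lower without untreated replicate 3. MSMO1, a sterol oxidase, rose from 39.5, 33.7 and 34.4 CPM to 102, 118 and 105 CPM (log2 fold change 1.60, SE 0.17, edgeR adjusted p = 5.9e-06), and EBP, a sterol isomerase, rose by 1.33. Of 21 genes of fatty acid activation and synthesis, 10 were lower and 2 higher (median -0.50, and -0.19 after subtracting the span bin), and the 2 higher were 1 without any 1 of 4 libraries. Beside ACSL3, the malic enzyme ME1 fell from 55.5, 39.4 and 46.1 CPM to 21.8, 10.3 and 6.75 CPM (log2 fold change -1.89, SE 0.32, edgeR adjusted p = 0.00019), with a log2 fold change of -2.49 without cisplatin replicate 1. ELOVL1, an elongase of very long chains, rose by 0.67.

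Of 25 NRF2 targets and glutathione genes, which answer oxidative and electrophilic stress, 10 were higher and 4 lower (median 0.35, span-adjusted 0.58). Without cisplatin replicate 1, 5 were higher and 4 lower, and 2 were lower without any 1 of untreated replicates 2 and 3 and cisplatin replicate 2. FTL, the ferritin light chain, rose from 183, 179 and 185 CPM to 935, 719 and 625 CPM (log2 fold change 2.06, SE 0.21, edgeR adjusted p = 5.72e-06), and SRXN1, sulfiredoxin, from 114, 109 and 139 CPM to 283, 426 and 382 CPM (log2 fold change 1.59, SE 0.19, edgeR adjusted p = 9.58e-06). HMOX1, heme oxygenase, was at 43.4, 50.1 and 47.3 CPM and 70.0, 119.7 and 149 CPM (log2 fold change 1.27). Groups were apart in these 3 genes. GSTP1, a glutathione transferase, rose from 1500.0, 1329.9 and 1096 CPM to 4591, 2744 and 1866 CPM (log2 fold change 1.23, SE 0.35, edgeR adjusted p = 0.00846), and without cisplatin replicate 1 its adjusted p was 0.0519. SLC7A11, the cystine transporter and also a target of ATF4, fell by 1.71. Of 12 metallothioneins, which bind metals, and metal regulators, 4 were tested, with 1 higher and 0 lower (median 0.51, span-adjusted 0.30). The 1 higher was SLC30A1 (log2 fold change 1.24, edgeR adjusted p = 0.0107), and its call was lost without cisplatin replicate 1 (edgeR adjusted p = 0.0584). MT2A was at 45.9, 38.3 and 38.7 CPM and 98.6, 53.5 and 41.7 CPM (edgeR adjusted p = 0.0961). Without cisplatin replicate 3 MT2A was called higher (log2 fold change 0.89, edgeR adjusted p = 0.0287).

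Platinum and copper handling was examined because the line's resistance is studied through the copper pump ATP7B. Of 13 such genes tested, 2 were higher and 4 lower (median 0.11, span-adjusted 0.06), and 3 and 5 without cisplatin replicate 1. ATP7B was too low to be tested, at 0.319, 0.863 and 0.764 CPM in untreated and 1.12, 0.00 and 0.00 CPM in cisplatin libraries, or 1, 3 and 3 and 2, 0 and 0 counts. ATP7A, the related pump, fell from 7.33, 7.77 and 9.93 CPM to 1.68, 1.47 and 1.99 CPM (log2 fold change -2.24, SE 0.57, edgeR adjusted p = 0.00438), and it overlaps PGK1 on the same strand. SLC31A1, the copper importer CTR1, was at 142, 148 and 165 CPM and 91.8, 103 and 141 CPM (log2 fold change -0.44, edgeR adjusted p = 0.205), with the highest cisplatin value just under the lowest untreated one. SLC31A2, its relative, was too low to be tested (1.91, 2.01 and 1.27 CPM and 0.00, 3.43 and 3.97 CPM). ATOX1, the chaperone that hands copper to the pumps, rose from 66.0, 49.8 and 47.1 CPM to 264, 148 and 85 CPM (log2 fold change 1.60, SE 0.40, edgeR adjusted p = 0.00415), although it overlaps G3BP1 on the other strand and RPLP1P6, a ribosomal protein pseudogene, on the same strand. SOD1, the copper and zinc superoxide dismutase, rose from 340.2, 353 and 330.4 CPM to 1103, 659.8 and 502 CPM (log2 fold change 1.14, SE 0.30, edgeR adjusted p = 0.00498). Replicate 1 was the highest and replicate 3 the lowest of the cisplatin libraries in both. COX17, which carries copper to mitochondria, was at 55.2, 47.5 and 70.5 CPM and 172, 70.6 and 54.0 CPM, and CCS, the chaperone of SOD1, at 20.1, 21.0 and 22.7 CPM and 29.1, 31.9 and 21.4 CPM. Both groups overlapped (edgeR adjusted p = 0.165 and 0.24). ABCB1, the efflux pump P-glycoprotein, fell from 35.7, 30.2 and 32.8 CPM to 1.68, 5.40 and 2.38 CPM (log2 fold change -3.36, SE 0.40, edgeR adjusted p = 1.17e-05), and the volume-regulated channel subunit LRRC8D, which can carry cisplatin, fell by 1.76. The log2 fold change of ABCB1 was -3.96 without cisplatin replicate 2, and that of LRRC8D -2.54 without cisplatin replicate 3. ABCB1 stands in this list as a drug efflux pump, and the study's main text does not name it among platinum transporters. It spans 210 kb, and all genes of 100 to 300 kb had a median log2 fold change of -1.17.

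Genes of adhesion, matrix and growth factor signaling fell, and these lists hold many long genes. Of 25 cadherins, mesenchymal matrix and guidance genes, 17 were lower and 3 higher (median -1.60, and -0.92 after subtracting the span bin). CDH2, N-cadherin, fell from 78.1, 69.1 and 82.0 CPM to 14.6, 3.92 and 2.78 CPM, 11.3-fold lower (log2 fold change -3.50, SE 0.41, edgeR adjusted p = 9.58e-06). CDH1, E-cadherin, rose from 1.59, 2.59 and 2.55 CPM to 9.52, 7.85 and 8.34 CPM (log2 fold change 1.89, SE 0.38, edgeR adjusted p = 0.000824). The groups did not overlap for either cadherin, but CDH1 was near the limit of counting in the untreated libraries, so its change is less certain than that of CDH2. ITGAV, an integrin subunit that binds vitronectin, fell from 695, 783 and 787 CPM to 163, 49.1 and 36.1 CPM (log2 fold change -3.20, SE 0.42, edgeR adjusted p = 2.22e-05), its partner ITGB1 fell by 2.09, and the intermediate filament VIM by 1.09. The log2 fold changes without cisplatin replicate 1 were -4.53 for CDH2, -4.17 for ITGAV and -2.75 for ITGB1. The collagen gene COL1A1 rose by 1.55. In TGF-beta signaling 11 of 20 were lower and 1 higher (median -0.76, and -0.35 after subtracting the span bin), among them the receptor BMPR2 (-2.06), and 7 were lower without cisplatin replicate 2. The 1 higher was 0 to 2 with single libraries left out, here and in the YAP and TEAD list. In the YAP and TEAD list 7 of 20 were lower and 1 higher (median -0.37, span-adjusted -0.18), among those lower the coactivator WWTR1 (-1.33). Of this list 4 were lower without cisplatin replicate 2. In insulin and IGF signaling 11 of 17 were lower and 1 higher (median -1.5, and -0.72 after subtracting the span bin). INSR, the insulin receptor, had 49, 46 and 50 counts in untreated and 2, 5 and 0 counts in cisplatin libraries (edgeR adjusted p = 0.000107), with a log2 fold change of -3.57 that was -2.89 without cisplatin replicate 3 and -4.75 without cisplatin replicate 2. GRB10, an adaptor that inhibits it, fell from 36.3, 34.8 and 34.4 CPM to 1.68, 2.94 and 3.57 CPM (log2 fold change -3.62, SE 0.43, edgeR adjusted p = 1.02e-05). The kinase AKT1 was the 1 increase (0.95).

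Inflammatory and metabolic lists moved less evenly. Of 14 NF-kappaB genes 3 were higher and 1 lower (median 0.43, span-adjusted 0.26), and without cisplatin replicate 1 these were 6 and 1. The inhibitor NFKBIB rose from 53.2, 63.3 and 61.1 CPM to 158, 236 and 183 CPM (log2 fold change 1.70, SE 0.19, edgeR adjusted p = 8.14e-06) and the mitochondrial dismutase SOD2 by 1.21, while CXCL1 fell from 58.7, 56.4 and 62.1 CPM to 15.7, 3.92 and 4.77 CPM (log2 fold change -2.91, SE 0.38, edgeR adjusted p = 2.13e-05). Of 19 interferon response genes (median -0.10, span-adjusted -0.53) 1 was higher, the ubiquitin-like ISG15 (1.55), and 3 were lower, among them IFIT1 (-1.69). Over single libraries left out these counts ran from 1 to 3 and from 1 to 6, with 2 and 6 without cisplatin replicate 1, 3 higher without cisplatin replicate 3 and 1 lower without untreated replicate 3. Of 21 genes of hypoxia (median -0.13, span-adjusted -0.02) 8 were lower, such as the prolyl hydroxylase P4HA1 (-2.25) and the glucose transporter SLC2A1 (-2.08), and 2 were higher. Without cisplatin replicate 2 these were 5 and 0, and none were higher without untreated replicate 3. Core autophagy had 9 higher and 10 lower of 30 (median 0.09, span-adjusted -0.04), with 3 higher without cisplatin replicate 2 and 5 without either untreated replicate 3 or cisplatin replicate 3. The receptor SQSTM1 rose from 216, 216 and 187 CPM to 425, 439 and 479 CPM (log2 fold change 1.12, SE 0.19, edgeR adjusted p = 0.000178), GABARAP rose by 1.08, and ATG5 fell by 1.38. Of 42 proteasome subunits 16 were higher and 2 lower (median 0.45, span-adjusted 0.18). Leaving out untreated replicate 3 gave 8 higher, and leaving out untreated replicate 1, cisplatin replicate 1 or cisplatin replicate 2 gave 10. NFKBIB, SOD2, IFIT1 and SQSTM1 overlap genes on the other strand, as do KRT18, MCM2, BCL2L11 and MEPCE.

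Regulators of transcription and splicing were examined as well. HEXIM1, which holds the elongation factor P-TEFb inactive, rose from 55.5, 47.8 and 50.4 CPM to 236, 221 and 176 CPM (log2 fold change 2.04, SE 0.22, edgeR adjusted p = 7.46e-06). The groups were apart, and of the 13 genes of this list 2 were higher and 5 lower (median -0.39, span-adjusted -0.06). MEPCE, which caps 7SK RNA, rose by 1.29, and LARP7, its binding protein, fell by 0.89. The SR splicing factors had 3 higher and 3 lower of 15 (median 0.04, span-adjusted -0.38), but 5 higher without cisplatin replicate 3, and 0 higher and 6 lower with scaling by library size alone. Among them SRSF11 was higher by 0.80, and SRSF3 fell by 0.74. Polycomb genes had 4 higher and 5 lower of 24 (median -0.10, span-adjusted 0.08), with CBX2 higher by 1.65 and JARID2 lower by 2.57. Of this list 2 were higher without either untreated replicate 2 or cisplatin replicate 2, and 6 without cisplatin replicate 1.

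Most ribosomal protein genes rose, although each count is uncertain where near-identical pseudogenes share its reads. Of 83 tested, 76 were higher and 0 lower (median 1.14, and 0.56 after subtracting the span bin). The median differences in cisplatin replicates 1, 2 and 3 were 1.66, 1.0 and 0.60, and without replicate 1, 51 were higher. RPSA rose from 177, 147 and 159 CPM to 735, 492 and 305 CPM (log2 fold change 1.66, SE 0.32, edgeR adjusted p = 0.000485). Ribosomal proteins took 11.8% ± 0.349 (SD, n = 3) of counts in untreated and 18.6% ± 3.15 (SD, n = 3) in cisplatin libraries. The groups did not overlap (exact two-sided permutation p = 0.1, the smallest possible). Of 20 host genes of small nucleolar RNAs, 13 were higher and 0 lower (median 1.1, span-adjusted 0.54), among them SNHG16 (1.52) and SNHG19 (1.66). Without cisplatin replicate 1, 10 of these host genes were higher and 1 lower. Nuclear genes of the respiratory chain had 37 of 76 higher and 1 lower (median 0.74, span-adjusted 0.37). Leaving out cisplatin replicate 1 gave 16 higher, and leaving out any 1 untreated library gave 20 to 24. Mitochondrial ribosomal proteins had 35 of 75 higher and 3 lower (median 0.43, span-adjusted 0.15), and 23 higher without cisplatin replicate 2.

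The mitochondrial genome took 4.11 to 5.57% of counts in untreated libraries and 18.3, 11 and 7.02% in cisplatin replicates 1, 2 and 3. Of its 26 genes tested 19 were higher and 0 lower (median 1.83), and 16 were higher without replicate 1. Ribosomal RNAs of the organelle made up 1.79 to 2.20% in untreated and 13.7, 5.61 and 3.41% in cisplatin libraries. MT-RNR2, the large ribosomal RNA, rose from 12605, 16125 and 15599.5 CPM to 144872, 47516 and 25688 CPM (log2 fold change 2.3, SE 0.58, edgeR adjusted p = 0.00397). Of the messengers, MT-CO1 rose from 611, 769.7 and 765 CPM to 6138, 4142 and 2078 CPM (log2 fold change 2.53, SE 0.39, edgeR adjusted p = 8.36e-05), whereas MT-CO3 was at 6250.5, 9011 and 8781 CPM and 8712, 12027 and 8439 CPM and MT-CYB at 1159, 1711 and 1690.3 CPM and 1270.1, 1840.5 and 1159 CPM. The groups overlapped for MT-CO3 and MT-CYB (edgeR adjusted p = 0.387 and 0.758), and their direction changed with the setting, scaling by library size alone for the first and leaving out cisplatin replicate 3 for the other. SNORD3A, the U3 RNA of the nucleolus, which carries no poly(A) tail, went from 2.23, 1.15 and 2.55 CPM to 88.5, 21.6 and 7.55 CPM (log2 fold change 4.24, SE 0.86, edgeR adjusted p = 0.000857). Without cisplatin replicate 1, the log2 fold change was 1.29 for MT-RNR2 and 2.79 for SNORD3A. The part of these classes in other results was not tested. With mitochondrial genes left out 2327 genes were higher and 2607 lower, close to the 2345 and 2622 with them.

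The largest changes at a mean of at least 4 on the log2 CPM scale can be named. Beside NR4A2, FEN1 and JMJD6, a 2-oxoglutarate oxygenase (2.76), the 12 largest increases were made of the mitochondrial genes MT-TF, MT-TC, MT-TL1, MT-RNR1 and MT-ND1, of the nuclear copies MTND6P4, MTND1P23 and MTRNR2L2, whose reads cannot be told from the organelle's, and of LINC00324. The call of MT-TL1 was lost without cisplatin replicate 1 (edgeR adjusted p = 0.0688). Without that library the log2 fold change went from 4.01 to 2.55 for MT-TF, from 3.30 to 2.05 for MT-TC, from 2.96 to 1.72 for MT-RNR1, from 3.20 to 2.47 for MTND1P23, from 2.75 to 1.57 for MTRNR2L2 and from 2.74 to 1.54 for LINC00324. The 12 largest decreases were CDH2, FAM129A, PTPRC, SEL1L, POSTN, ATG10, ALCAM, ITGAV, CLGN, SEMA3A, ADGRG6 and COL5A2. Of these, CDH2, FAM129A, PTPRC, ATG10, ALCAM, SEMA3A, ADGRG6 and COL5A2 span 100 kb and over. All genes of 100 to 300 kb had a median of -1.17, and those of 300 kb and over a median of -1.90. The others of the 12 span 36.3 to 90.8 kb, in the bin with a median of -0.26. POSTN, the matrix protein periostin, fell from 1516, 1465 and 1531 CPM to 322, 62.8 and 79.4 CPM (log2 fold change -3.29, SE 0.45, edgeR adjusted p = 3.2e-05), ALCAM, an adhesion molecule, by 3.21, SEMA3A, a secreted guidance protein, by 3.15, and CLGN, an ER chaperone, by 3.20. In each of the 12 the cisplatin libraries lay below the untreated range, and replicate 1 was the highest of the 3. Without it the log2 fold changes were -4.41 for POSTN, -4.32 for ALCAM, -4.18 for COL5A2, -4.16 for ATG10, -4.05 for FAM129A, -3.89 for SEMA3A and -3.84 for ADGRG6. ATG10 shares its locus with RPS23, so its reads are uncertain.

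The same changes can be set beside those with a drug before cisplatin. These comparisons share the untreated libraries, so their values stand side by side and are not independent. Against untreated cells, the log2 fold change of NR4A2 was 4.70 with cisplatin alone, 3.16 with Tranilast, 4.06 with Telmisartan and 2.94 with Amphotericin B. For UNG these values were 2.44, 1.54, 2.16 and 1.89, for HSPA5 -2.95, -2.31, -3.11 and -3.19, and for ACSL3 -2.65, -1.22, -2.16 and -2.13. All 4 genes kept their direction in every combination. Tested directly against cisplatin alone, the Tranilast libraries were lower in NR4A2 (log2 fold change -1.54, edgeR adjusted p = 0.0031) and UNG (-0.90, adjusted p = 0.00532) and higher in ACSL3 (1.43, adjusted p = 0.00114). HSPA5 did not pass (0.64, edgeR adjusted p = 0.072). The Amphotericin B libraries were lower in NR4A2 as well (log2 fold change -1.75, edgeR adjusted p = 0.00453), and the other 3 genes did not pass there (edgeR adjusted p from 0.0728 to 0.53). Between Telmisartan and cisplatin alone edgeR called 0 of 11113 genes, with 1150 at an unadjusted p under 0.05, and no other tool was run on that comparison. Against untreated cells, edgeR called 2.44% of genes higher and 5.66% lower in the Tranilast libraries. The same shares were 12.8% and 15.8% after Telmisartan, and 17.6% and 23.3% after Amphotericin B. Tested against cisplatin alone, 18 of the 27 ATF4 genes were higher with Tranilast than with cisplatin alone and 0 lower, where 10.5% of all genes were higher and 11.6% lower. With Amphotericin B, 2 of them were higher and 1 lower than with cisplatin alone, where 4.21% and 9.01% of all genes were. The median of that list against untreated cells was -0.13 with Tranilast, -0.97 with Telmisartan and -1.64 with Amphotericin B. G1/S genes had medians of 1.15, 1.25 and 1.06 in the same order, near the 1.22 of cisplatin alone. Genes of 300 kb and over had medians of -1.47, -1.53 and -0.87, and genes under 10 kb medians of 0.07, 0.48 and 0.58. Telmisartan replicate 3 lay near the Tranilast libraries, with 7.26% of counts on genes of 100 kb and over, against 4.81% in both other Telmisartan libraries and 8.12 to 9.10% with Tranilast.

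**Figure D5:**
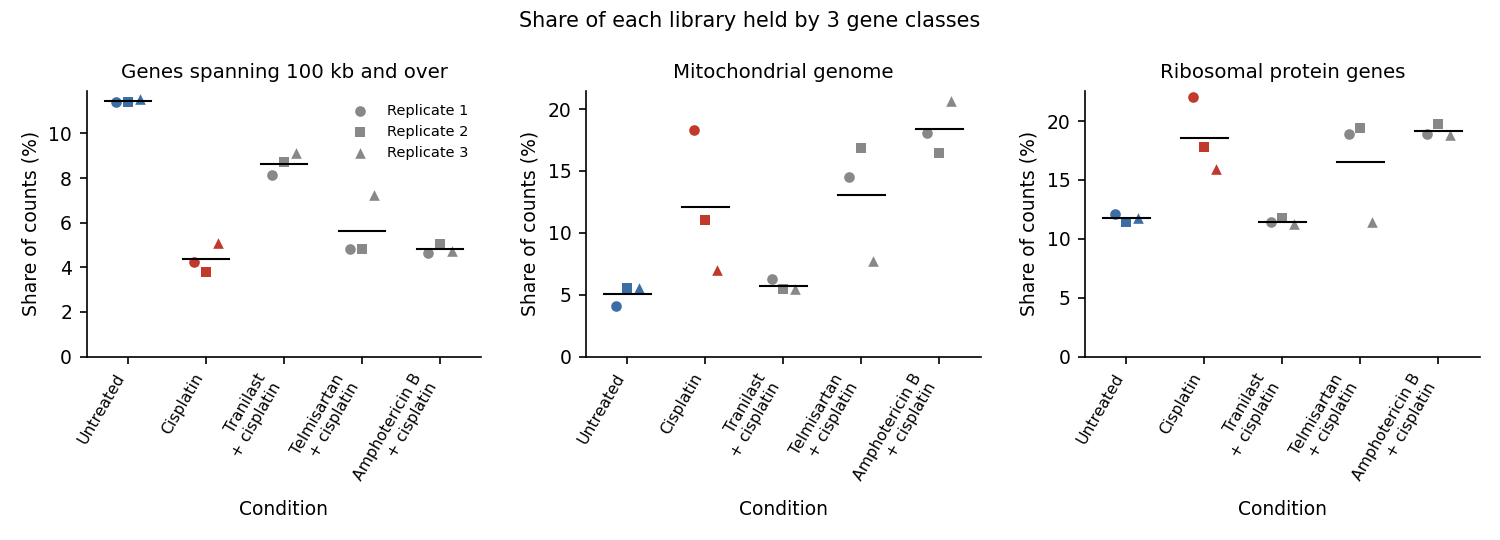
Percent of all counts (vertical axes) on the mitochondrial genome, on ribosomal protein genes and on genes of 100 kb and over in each library (points) of the 5 conditions, with group means. The cisplatin libraries (7.02 to 18.3%, 15.9 to 22% and 3.80 to 5.07%) are apart from the untreated ones in all 3 panels.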

How the data were processed

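Total RNA from IGROV-CP20 cells was made into QuantSeq 3' libraries from 100 ng and read as single ends of 75 bp. The authors deposited 1 table of raw read counts per gene for each library, not normalized. The submitters' processing notes name STAR 2.3.0, HTSeq and hg19, while the annotation and the strand setting of counting are not given in the sources used here, so reads of overlapping genes may not be told apart. Symbols and spans were taken from GENCODE 29 (GRCh38), which held 45776 of the 47634 identifiers. Since the builds differ, coordinates are those of GENCODE and spans are used only to bin genes.

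Groups came from the sample titles. Genes passing filterByExpr over all 15 libraries were tested (11113, 36521 left out), with TMM scaling and edgeR 4.0.16 (R 4.3.3): glmQLFit with condition as the only term and a quasi-likelihood F test of cisplatin minus untreated, Benjamini-Hochberg adjusted. A gene low in untreated libraries could pass this filter through treated libraries, and such a gene could hardly be called lower. The standard error is the log2 fold change divided by the square root of F. CPM are counts over the library total times its TMM factor, and shares of counts are over the raw total. Shares of counts were compared by an exact two-sided permutation test over 3 against 3 libraries (scipy 1.17.1). The edgeR p-values rest on a spread estimated from all 15 libraries together, although untreated replicates differed less from each other than cisplatin replicates did. Permutation p-values rest on the libraries compared. The libraries are labelled biological, and nothing further is stated on how cultures were separated. Promoters were matched by symbol to a RefSeq table (GRCh38.p14), which held 8620 of the 11113 tested genes. The test was first run on simulated counts.

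The members, the gene lists and the rule for named genes were chosen with earlier results of these data known. Named were NR4A2, UNG, HSPA5 and ACSL3, genes among the 12 largest increases and decreases at a mean log2 CPM of at least 4 without overlap, genes among the 2 called members of smallest p per list and direction, 8 copper and platinum genes, and the 3 genes with the largest share of cisplatin counts. Further members of the lists, such as JUN, E2F1, CDKN1A and DDIT3, were named after their values were seen. Several list genes, among them DDB2, ACACA and CD24, were not analysed here. The alternatives were DESeq2 1.42.0, limma 3.58.1 voom, edgeR's likelihood ratio test, other scalings and filters, the 6 libraries alone, a replicate block, each library left out and, chosen after seeing the data, mitochondrial genes left out.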

Additional observations from a re-analysis of the deposited data

How the results depend on the processing

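Scaling by library size alone gave 1019 genes higher and 3351 lower, and an adjusted p under 0.01 gave 1403 and 1709. Every other setting kept both counts within 1.5 times the main 2345 and 2622. Leaving out 1 library at a time gave 1667 to 2347 higher and 1914 to 2781 lower. The median log2 fold change of genes under 10 kb ranged from 0.53 (without cisplatin replicate 1) to 0.69, and that of genes of 300 kb and over from -2.70 (without cisplatin replicate 1) to -1.66. The medians of the other bins moved by less than the spread between libraries. The difference between cisplatin and untreated in the share of mitochondrial counts was 3.94 percentage points without cisplatin replicate 1 and 9.58 without cisplatin replicate 3, around 7.03 with all libraries. Of 199 named genes tested, 162 kept call and direction in all 18 settings. CCS and MT-CO3, neither called, turned to -0.0079 and -0.0704 with scaling by library size alone, and MT-CYB, not called, ranged from -0.33 to 0.0306 with single libraries left out. The causes were not tested. Of 1440 counts of list members called, 170 moved by over 1.5 times.

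Replicate numbers are shared between the conditions, but deviations of same-numbered untreated and cisplatin libraries correlated at only 0.00347, 0.0423 and 0.0224 across genes. These values do not show a pairing by number and cannot exclude one, since the cisplatin libraries differed widely from each other. A replicate block gave 2307 genes higher and 2674 lower over 15 libraries, and 1677 and 2169 over the 6 libraries alone. Without a block, the fit to the 6 libraries alone gave 2012 higher and 2378 lower. DESeq2 gave 2613 and 2515. Depth limits low genes: with 2171154 to 3392054 counts per library, levels near 1 CPM such as those of ATP7B could not be compared.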
